A study of Mus musculus with 2 samples.

Results

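The genes of leukaemia inhibitory factor (LIF) and interleukin-6 (IL-6) signalling were followed through the mouse mammary gland, 8 of the 32285 genes counted: the ligands Lif, Il6 and Osm, the receptors Lifr, Osmr and Il6st, the transcription factor Stat3 and the inhibitor Socs3. Each group was 1 single-cell library (10x Genomics) of mammary glands from adult wild-type female mice, 9 to 10 weeks old in the sample records and 8 to 10 weeks old in the protocol. Ctrl came from control mice and CL from mice given clodronate liposomes, an agent that kills the phagocytes that take it up, by repeated intraperitoneal injection. Glands were digested at 37 °C, and the sort was meant to keep CD45+ immune cells and CD31-TER119- cells, which removes endothelial and red blood cells. The number of mice behind each library is not given in the sources used here.

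Cytokines of this family all signal through gp130, the protein of Il6st. It pairs with the LIF receptor for LIF and with the oncostatin M receptor (or the LIF receptor) for oncostatin M. For IL-6, gp130 carries the signal and the IL-6 receptor binds the ligand. The assembled receptor activates JAK kinases, which phosphorylate STAT3, and STAT3 switches on Socs3, whose product binds gp130 and shuts the signal down. In the mammary gland this route is best known from involution after weaning, when milk-producing cells make LIF and epithelial STAT3 drives cell death and tissue regression.

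The libraries held 118743318 UMIs (Ctrl) and 155765480 UMIs (CL). After filtering, 5937 and 8826 cells remained, with medians of 11351 and 10337 UMIs, and 18 listed barcodes were shared. The 7 classes used here, named from marker genes, held in Ctrl and CL 408 and 444 basal-like, 2100 and 2590 hormone-responsive luminal-like, 2642 and 3894 secretory-lineage luminal-like, 199 and 204 fibroblast-like, 55 and 62 endothelial-like, 62 and 273 macrophage-like, and 213 and 734 T and NK-like cells. The 11 macrophage markers summed to 97.4 counts per 1000000 UMIs (CPM) over all Ctrl cells and 241 CPM over all CL cells, higher in the library of the treatment that kills phagocytes. The macrophage-like class was made of a C1qa-led cluster with 41 of the 5937 and 43 of the 8826 cells, a smaller share in CL, and a Lyz2-led cluster, with S100a8 as its second gene, with 21 and 230 cells. As these values run both ways, the text speaks of the Ctrl-labelled and the CL-labelled library, and no direction is read as an effect of macrophage loss. With 1 library a group there is no test between groups, and all intervals are exact 95% intervals that cover counting error only. A member with at least 2-fold difference and an interval that excludes no change is said to be past the 2-fold limit.

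The members lie in a few places in the genome (GRCm38, GENCODE M21). Osm (chr11:4236420-4241026) and Lif (chr11:4257557-4272514) are neighbours on the plus strand, and Osmr (chr15:6813577-6874969, minus strand) and Lifr (chr15:7090614-7197489, plus strand) lie near each other on chromosome 15. Il6 is at chr5:30013114-30019981, Il6st at chr13:112464070-112510086, Stat3 at chr11:100885098-100939540 and Socs3 at chr11:117966079-117970047.

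Promoter sequence is shown for the ligands Lif and Il6, whose windows were found, and for Socs3, the feedback target of the pathway. The stretches are RefSeq windows (GRCm38.p6) of up to 250 bases before the RefSeq start site, ended before an annotated exon. The Socs3 stretch lies inside the annotated gene, whose upstream end is at chr11:117970047 on the minus strand. Capitals mark matches, on either strand, to the letters TTCNNNGAA (the STAT element), GGGNN directly followed by TTTCC (NF-kB), TGANTCA (AP-1) and TTNNGCAA (C/EBP), letters that were chosen after the sequences had been seen.
Socs3 promoter, chr11:117969452-117969616, minus strand: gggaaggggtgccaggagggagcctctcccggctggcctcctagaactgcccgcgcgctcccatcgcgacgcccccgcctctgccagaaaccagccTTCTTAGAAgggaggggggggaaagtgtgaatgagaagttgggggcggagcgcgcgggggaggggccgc
Lif promoter, chr11:4257318-4257556, plus strand: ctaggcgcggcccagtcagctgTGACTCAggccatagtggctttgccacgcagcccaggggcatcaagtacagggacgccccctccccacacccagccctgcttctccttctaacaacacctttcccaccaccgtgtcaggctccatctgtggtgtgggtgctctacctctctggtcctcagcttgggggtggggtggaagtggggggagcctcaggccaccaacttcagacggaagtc
Il6 promoter, chr5:30012864-30013113, plus strand: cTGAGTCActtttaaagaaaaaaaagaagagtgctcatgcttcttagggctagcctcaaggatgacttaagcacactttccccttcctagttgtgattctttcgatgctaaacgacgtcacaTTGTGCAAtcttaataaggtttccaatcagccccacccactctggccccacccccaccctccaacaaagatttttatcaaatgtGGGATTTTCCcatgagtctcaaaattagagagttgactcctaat
RefSeq windows were found for 7 of the 8 members. Among them the STAT letters occurred only in Socs3, 154 to 146 bases before the start site, and they occur in 7.02% of all 32851 windows of 250 bases. The Lif stretch held 1 AP-1 match, at 228 to 222 bases, letters found in 6.75% of windows. The Il6 stretch held an NF-kB match at 44 to 35 bases (1.41% of windows), a C/EBP match at 128 to 121 bases (9.56%) and an AP-1 match at 249 to 243 bases. These matches describe letters in the windows, and binding was not measured.

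Lif, the ligand of the LIF receptor, was a gene of the secretory-lineage luminal-like cells, the luminal cells that go on to make milk. These cells held 86.9% of the 12677 Lif UMIs (Ctrl) and 83.0% of the 15867 (CL), while they were 44.5% and 44.1% of the cells. Their level was 357 CPM (351 to 364) and 301 CPM (296 to 307). Hormone-responsive luminal-like cells, the luminal cells with oestrogen and progesterone receptors, had 14.3 CPM (13.2 to 15.5) and 16.2 CPM (15.1 to 17.4). The secretory-lineage cells were thus 24.9-fold and 18.6-fold above them, a log2 ratio of 4.64 (4.53 to 4.76) and 4.21 (4.11 to 4.32). The size depended on the cells kept, and the lowest ratios under other settings were 3.16 with at least 200 genes per cell (Ctrl) and 2.56 with doublets kept (CL).

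The pattern held in single cells and in each cluster. With every cell thinned to 2000 UMIs, Lif was seen in 33.6% (31.7 to 35.4) and 29.7% (28.3 to 31.2) of secretory-lineage cells, against 2.69% and 3.35% of hormone-responsive cells and 2.58% and 2.19% of T and NK-like cells, where Lif was among the lowest. Without thinning the shares were 62.0% and 58.5%, 17.3% and 15.8%, and 3.76% and 4.09%. The thinned shares in hormone-responsive and T and NK-like cells overlapped (median depths 20298 and 17141 UMIs, against 4872 and 4458). In CPM, T and NK-like cells had 8.30 (3.80 to 15.8) and 11.0 (7.91 to 14.8), below hormone-responsive cells in the CL-labelled library. Droplets of 100 to 300 UMIs, which hold free RNA, had 117 and 99.2 CPM of Lif, above the levels of both these classes. Basal-like cells, the outer contractile layer, had 29.0 and 31.1 CPM, and their share of 5.26% and 3.75% overlapped that of T and NK-like cells within its interval. Among the 4 secretory-lineage clusters with over 300 cells in both libraries, Lif ran from 293 CPM in the Cck-led to 420 CPM in the Car2-led cluster in the Ctrl-labelled library, and from 240 CPM in the Lalba-led to 362 CPM in the Car2-led cluster in the CL-labelled library. All of these lay above the highest Lif level of any hormone-responsive cluster, 25.8 CPM.

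Fibroblast-like cells were the second class for Lif, at 295 CPM (270 to 323) and 125 CPM (107 to 144), the second value near that of the droplets. Their Lif was held by few cells. In the Ctrl-labelled library, 58 of 199 cells had any Lif and the 5 richest held 51.8% of the 496 UMIs, with 76 in 1 cell. In the CL-labelled library, 55 of 204 cells had any and the 5 richest held 37.3% of 185 UMIs.

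**Figure D1:**
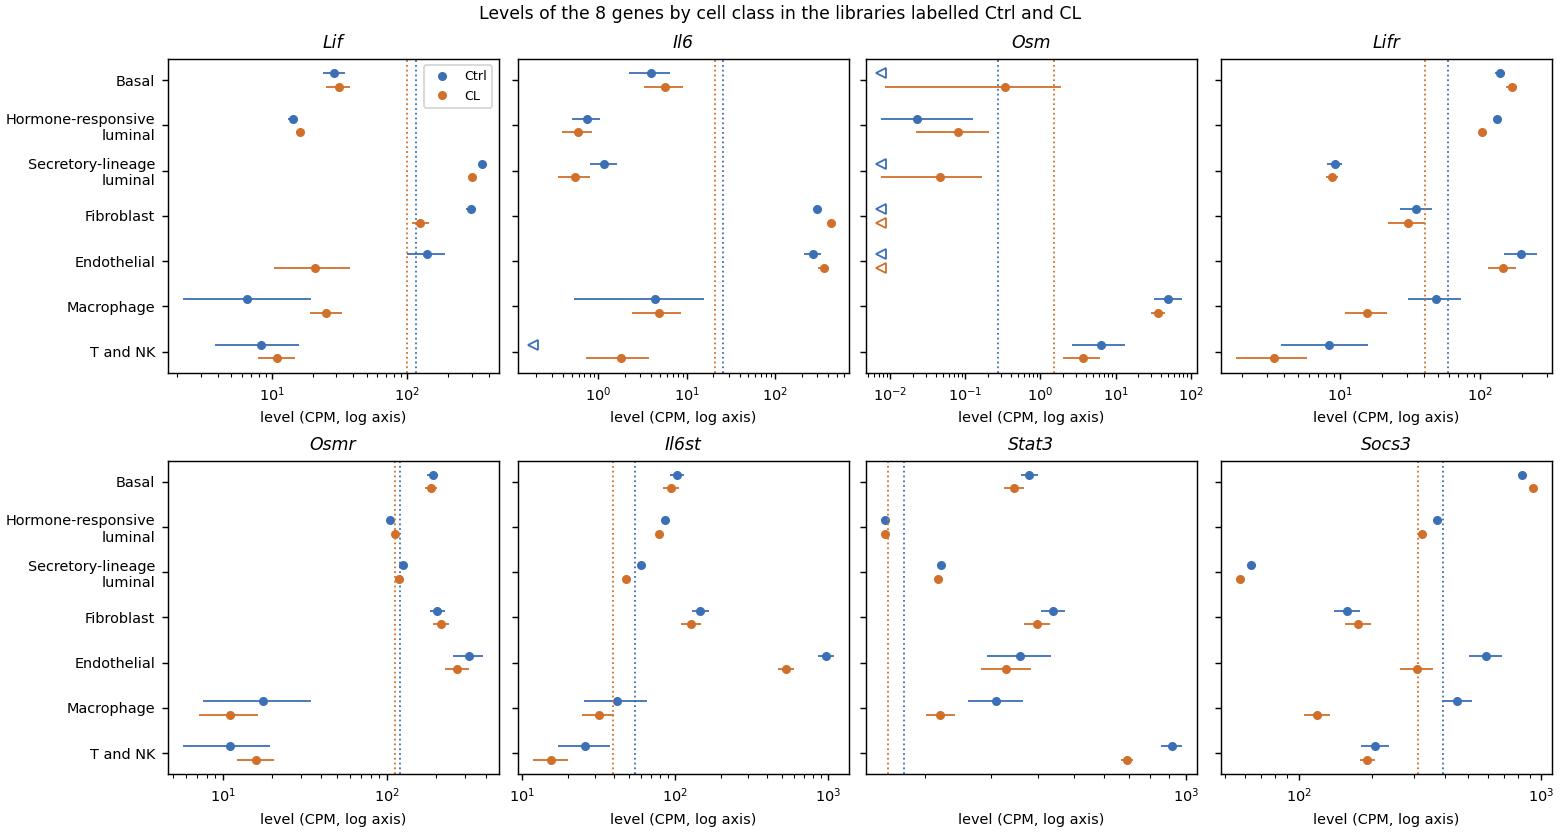
Level of each gene in CPM (log axis) in 7 cell classes, in the Ctrl-labelled library (blue) and CL (orange), with 95% counting intervals; dotted lines give the level in droplets of 100 to 300 UMIs, and an open triangle at the left edge marks 0 UMIs. Lif stands highest in secretory-lineage luminal-like cells (357 and 301 CPM), Osm in macrophage-like cells (50.6 and 37.3 CPM) and Socs3 in basal-like cells (832 and 919 CPM).

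Il6, the IL-6 ligand, was a stromal gene. Fibroblast-like cells had 301 CPM (275 to 328) and 426 CPM (394 to 461), and endothelial-like cells 268 CPM (211 to 334) and 356 CPM (307 to 411). The intervals of these 2 classes overlapped in both libraries. In endothelial-like cells 77 of 77 and 185 of 187 Il6 UMIs lay in the Selp-led cluster (460 and 436 CPM). Of the 55 and 62 endothelial-like cells 14 and 25 had any Il6, and the 5 richest held 72.7% and 63.1% of it. In fibroblast-like cells the 5 richest held 30.5% and 40.2%. Basal-like cells had 3.95 and 5.68 CPM from 15 and 17 UMIs. Hormone-responsive cells had 0.743 and 0.587 CPM and secretory-lineage cells 1.17 and 0.549 CPM, under the 25.8 and 20.7 CPM of the droplets. In thinned fibroblast-like cells 23.7% and 28.6% had a UMI (41.2% and 42.2% unthinned). In T and NK-like cells the shares were 0 of 194 and 0.584%. With a limit of 3 cells, 0 of 194 allows a share of up to 1.55% (exact interval 0 to 1.88%).

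Most Il6 lay outside the named classes. An unnamed cluster of 56 and 68 cells, with Il6 itself, Ccl7 and Serping1 as its leading genes, had 2803 and 3555 CPM and held 47.6% and 46.5% of all 1650 and 2040 Il6 UMIs, from 0.943% and 0.770% of the cells. Fibroblast markers scored best in it, at 5.86 against 0.712 for the next class, while the named Ccl2-led fibroblast cluster scored 5.71. Of the fibroblast markers 7 of 8 were seen in at least 10% of its cells and stood at least 2-fold above the median cluster. Its depth was low (medians of 3251.5 and 2444 UMIs) and none of its 10 leading genes was a fibroblast marker, so the naming rule left it unnamed. A second unnamed cluster of 39 and 44 cells, led by Gm13889, Mustn1 and Sparcl1, in which pericyte markers scored best and basal markers close to them, had 633 and 554 CPM and held 11.8% and 8.38%. Il6 was kept out of the genes used for clustering.

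Osm, which encodes oncostatin M, was scarce and came from leukocytes. It had 31 and 111 UMIs in all kept cells. Macrophage-like cells held 23 and 84 of them, at 50.6 CPM (32.1 to 76.0) and 37.3 CPM (29.7 to 46.2), and T and NK-like cells 7 and 14, at 6.46 and 3.66 CPM. The C1qa-led cluster of this class held 20 and 14 UMIs (59.9 and 27.7 CPM, log2 -1.11, -2.21 to -0.06), and the Lyz2-led cluster 3 and 70 (24.9 and 40.1 CPM, log2 0.68, with an interval that held 0). No UMI was found in fibroblast-like or endothelial-like cells of either library. After thinning, 8.93% (2.96 to 19.6) and 5.62% (3.11 to 9.25) of macrophage-like cells had Osm (17.7% and 18.3% unthinned). In hormone-responsive cells it was 0.048% and 0 of 2571 (0.0476% and 0.154% unthinned). With a limit of 3 cells, 0 of 2571 allows a share of cells with a UMI of up to 0.117% (exact interval 0 to 0.143%). In the Ctrl-labelled library the 5 richest macrophage-like cells held 73.9% of that class's Osm.

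**Figure D2:**
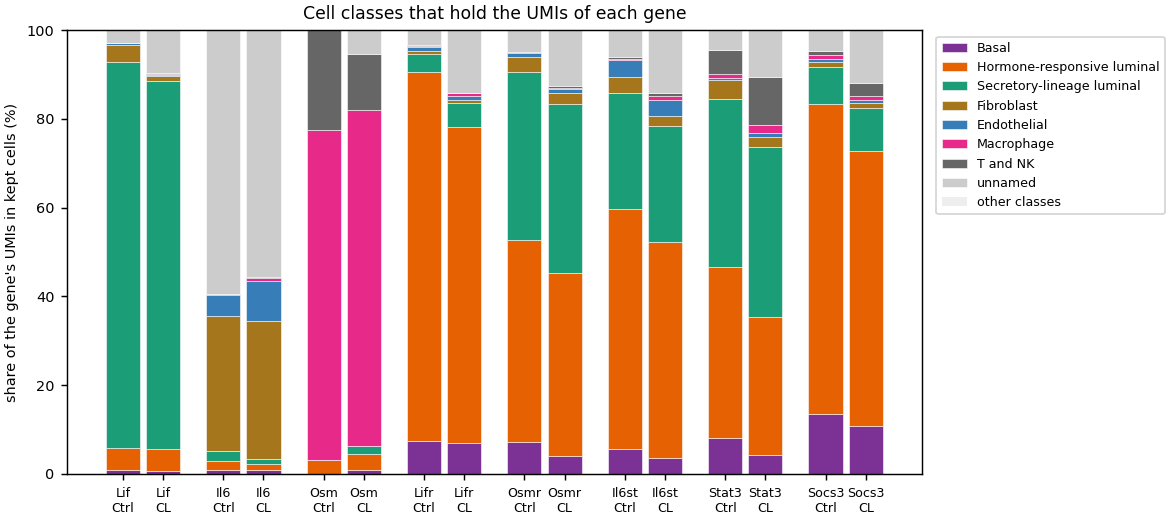
Share of each gene's UMIs in kept cells (%, vertical axis) held by each cell class, with 1 bar for each gene and library; unnamed covers the unnamed clusters. Secretory-lineage cells hold 86.9% and 83.0% of Lif, hormone-responsive cells 83.1% and 71.3% of Lifr, and unnamed cells 59.5% and 55.5% of Il6.

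Lifr, the receptor chain for LIF, had nearly the reverse distribution of its ligand in the epithelium. Basal-like cells had 139 CPM (127 to 151) and 168 CPM (154 to 183), and hormone-responsive cells 132 CPM (129 to 135) and 104 CPM (101 to 107). Secretory-lineage cells had only 9.18 CPM (8.14 to 10.3) and 8.81 CPM (7.96 to 9.74). Hormone-responsive cells were 14.4-fold and 11.8-fold, and basal-like cells 15.1-fold and 19.1-fold, above secretory-lineage cells. The share of thinned secretory-lineage cells with Lifr, 1.46% and 1.64%, overlapped that of T and NK-like cells, 2.58% and 1.02% (8.86% and 8.27% unthinned, against 4.23% and 1.5%). In CPM, T and NK-like cells had 8.30 (3.80 to 15.8) and 3.40 (1.81 to 5.81), below secretory-lineage cells in the CL-labelled library. It was seen in 25.7% and 19.6% of hormone-responsive cells (83.2% and 74.2% unthinned) and in 24.8% and 31.2% of basal-like cells (61.0% and 58.8% unthinned). Endothelial-like cells, with 195 CPM (147 to 253) and 145 CPM (114 to 181), had intervals that overlapped those of basal-like cells. Fibroblast-like cells had 35.1 and 30.4 CPM. In droplets Lifr was at 58.9 and 40.2 CPM, above its level in secretory-lineage, fibroblast-like, macrophage-like and T and NK-like cells in both libraries.

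Across hormone-responsive clusters with over 60 cells in both libraries, Lifr ran from 107 to 167 CPM and from 95.8 to 172 CPM, highest both times in the Aoc1-led cluster. That cluster held 889 cells of the Ctrl-labelled library and 69 of the CL-labelled library. Within the Aoc1-led cluster Lifr was 167 and 172 CPM, and within the Krt6a-led cluster 128 and 127 CPM. Within the Fxyd2-led cluster it was 107 and 95.8 CPM, lower in the CL-labelled library beyond counting error (log2 -0.16, interval -0.27 to -0.05). The class-wide difference between the libraries (log2 -0.35, interval -0.40 to -0.29) came with a different make-up of the class, whose part in it was not tested.

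An unnamed cluster of 90 and 436 cells, led by Hp, Muc16 and Clca3a2 and the deepest of the unnamed clusters (27825 and 26272 UMIs), had intermediate values of both genes, 94.8 and 114 CPM of Lif and 77.2 and 79.1 CPM of Lifr. Hormone-responsive markers scored best in it and secretory-lineage markers second, and whether it holds pairs of cells was not tested.

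**Figure D3:**
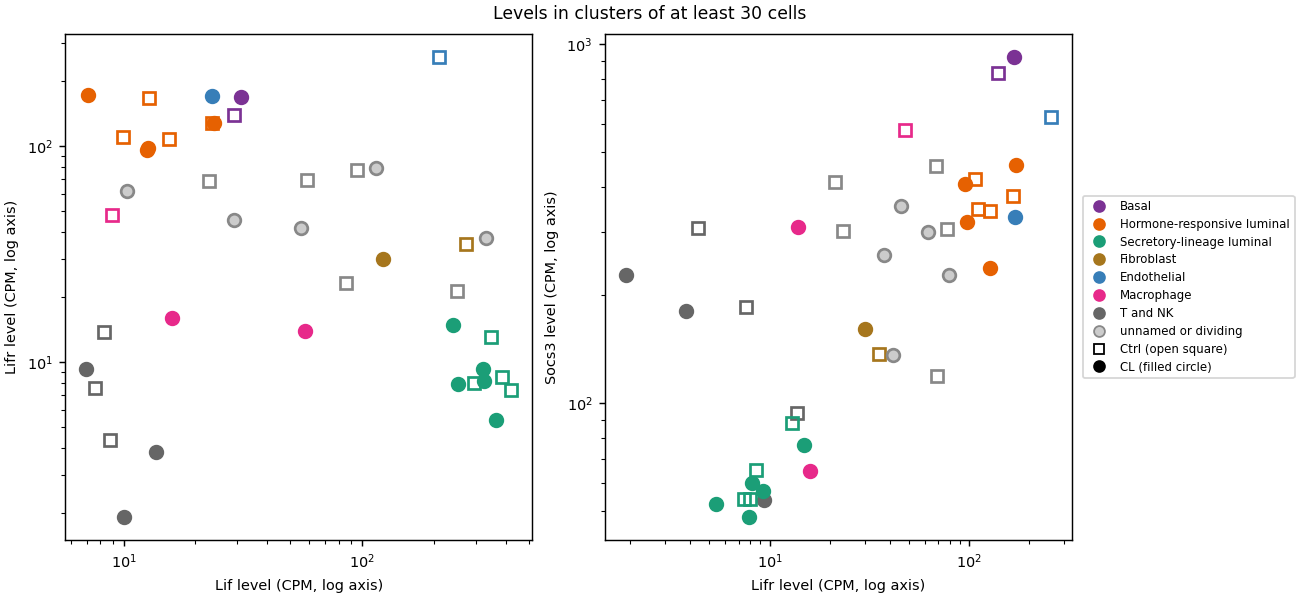
Left, Lif against Lifr, and right, Lifr against Socs3, in CPM on log axes, for each cluster with at least 30 cells in a library (20 clusters in the Ctrl-labelled library as open squares, 22 in the CL-labelled library as filled circles), coloured by class. Secretory-lineage clusters sit at high Lif and low Lifr, and hormone-responsive clusters at low Lif and high Lifr.

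Osmr, the receptor chain for oncostatin M, was highest in stromal and basal-like cells. Endothelial-like cells had 316 and 268 CPM, fibroblast-like cells 204 and 214 CPM, basal-like cells 191 and 186 CPM. The luminal classes were lower, at 126 and 118 CPM in secretory-lineage and 105 and 112 CPM in hormone-responsive cells, close to the 120 and 113 CPM of the droplets. Macrophage-like cells, the main carriers of Osm, had 17.6 CPM (8 UMIs) and 11.1 CPM (25 UMIs), and T and NK-like cells 11.1 and 15.9 CPM. In thinned cells Osmr was seen in 31.6% and 29.8% of basal-like cells and in 2.58% and 2.34% of T and NK-like cells (73.5% and 65.5%, and 5.63% and 5.18%, unthinned).

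Il6st, which encodes the shared chain gp130, had UMIs in all 7 classes and was highest in endothelial-like cells, at 970 CPM (859 to 1090) and 533 CPM (472 to 599). Fibroblast-like cells followed with 146 and 128 CPM, basal-like cells with 103 and 94.2 CPM, hormone-responsive cells with 85.7 and 78.8 CPM and secretory-lineage cells with 59.5 and 47.7 CPM. T and NK-like cells were lowest, at 25.8 CPM (17.2 to 37.3) and 15.4 CPM (11.7 to 19.9), and macrophage-like cells had 41.8 and 31.5 CPM. Both classes were under the 54.5 and 39.3 CPM of the droplets. The order of the 7 classes was the same in both libraries, although in the Ctrl-labelled library the last 3 classes overlapped.

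Stat3, the transcription factor at the end of the pathway, was found in all 7 classes. It was highest in T and NK-like cells, at 912 CPM (856 to 971) and 693 CPM (667 to 720), and lowest in hormone-responsive cells, at 156 and 155 CPM, under the 175 and 159 CPM of the droplets. Within T and NK-like cells the granzyme cluster (Gzmc, Gzmb) had 1446 and 1500 CPM, and the T cell cluster with Trbc2 364 and 353 CPM. The classes between them were fibroblast-like (440 and 399 CPM), basal-like (379 and 346), endothelial-like (358 and 329), macrophage-like (308 and 219) and secretory-lineage cells (220 and 216).

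Socs3, the feedback inhibitor, was highest in basal-like cells in both libraries. Basal-like cells had 832 CPM (803 to 861) and 919 CPM (885 to 954), hormone-responsive cells 370 CPM (365 to 376) and 322 CPM (317 to 327), and secretory-lineage cells 63.9 CPM (61.1 to 66.7) and 57.4 CPM (55.2 to 59.7). Hormone-responsive cells were 5.80-fold and 5.61-fold above secretory-lineage cells, and basal-like cells 13-fold and 16-fold. After thinning, 65.9% and 66.8% of basal-like, 44.9% and 40.8% of hormone-responsive and 12.3% and 10.1% of secretory-lineage cells had a UMI (89.0% and 87.2%, 91.0% and 88.3%, and 41.1% and 37.1% unthinned). Endothelial-like cells, at 591 and 307 CPM, and macrophage-like cells, at 449 and 119 CPM, were above hormone-responsive cells in the Ctrl-labelled library. That order rested on few cells, since the 5 richest held 53.5% of the endothelial-like and 44.6% of the macrophage-like Socs3 UMIs there. Without the 5 richest cells of each class, these levels were 321 and 285 CPM, below the 362 CPM of hormone-responsive cells. In droplets Socs3 was at 393 and 309 CPM. In both libraries this was above its level in secretory-lineage, fibroblast-like (158 and 175 CPM) and T and NK-like cells (207 and 192 CPM). The droplets were also above hormone-responsive cells in the Ctrl-labelled library and above macrophage-like cells in the CL-labelled library. Endothelial-like cells of the CL-labelled library, at 307 CPM (261 to 358), were at the droplet level.

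Among the epithelial classes Lifr and Socs3 were thus both lowest where Lif was highest. Over the 14 values of 7 classes in 2 libraries, on the log2(CPM + 10) scale, Pearson's r was 0.82 between Lifr and Socs3, -0.52 between Lif and Socs3, -0.20 between Lif and Lifr, and -0.76 between Osm and Osmr. These points share libraries and depth and are descriptions only. Of 10588 genes, those most like each member on this measure were Gorasp2, Ahnak and Stk40 for Lif (r 0.93 for each), Csrp2, Adamts4 and Cd34 for Il6 (0.99, 0.98 and 0.98), Syk, Ccl9 and Ctss for Osm (1.00, 1.00 and 0.99), Net1, Cav1 and Arid5b for Lifr (0.90, 0.88 and 0.88), Arhgef12, Cavin3 and Nfia for Osmr (0.99, 0.98 and 0.98), Insr, Adamts9 and Arhgap29 for Il6st (0.97, 0.96 and 0.96), Nup98, Rabgap1l and Nr4a2 for Stat3 (0.97, 0.96 and 0.95), and Lrrc28, Net1 and Jag1 for Socs3 (0.90, 0.85 and 0.85). Net1 was on the lists of both Lifr and Socs3.

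Between the libraries the members differed little in the epithelium. In basal-like cells 0 of the 6 members with at least 50 UMIs were past the 2-fold limit, against 2.1% of 8381 genes, and in hormone-responsive cells 0 of 7, against 2.3% of 13136 genes. In secretory-lineage cells 1 of 7 was past it, against 2.34% of 12397 genes. That was Il6, with 36 and 24 UMIs (1.17 and 0.549 CPM), a level below that of the droplets. Of the 36 UMIs 10 lay in 1 cell, and the log2 ratio of -1.09 ran from -1.13 to -0.46 under other settings, so that the call did not hold under all of them. Lif itself was slightly lower in the CL-labelled library in secretory-lineage cells, by 0.25 on the log2 scale (interval -0.28 to -0.21), and lower in each of the 4 clusters with over 300 cells. The clusters that made up this class differed: the Gbp2-led cluster held 12 and 678 cells. The 10 secretory-lineage markers were also lower in this class, at 15185 and 13039 CPM in sum (log2 -0.22), and their part in the Lif ratio was not tested. In T and NK-like cells 0 of 5 were past the limit, against 2.83% of 7112 genes, and Stat3 had a log2 ratio of -0.40 (interval -0.50 to -0.29). Within its clusters Stat3 was not beyond counting error, at -0.12 in the Xcl1-led (108 and 418 cells), -0.04 in the Ccl5-led (46 and 242 cells) and 0.05 in the granzyme cluster (59 and 74 cells), so the make-up of the class differed, and its part in the ratio was not tested.

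**Figure D4:**
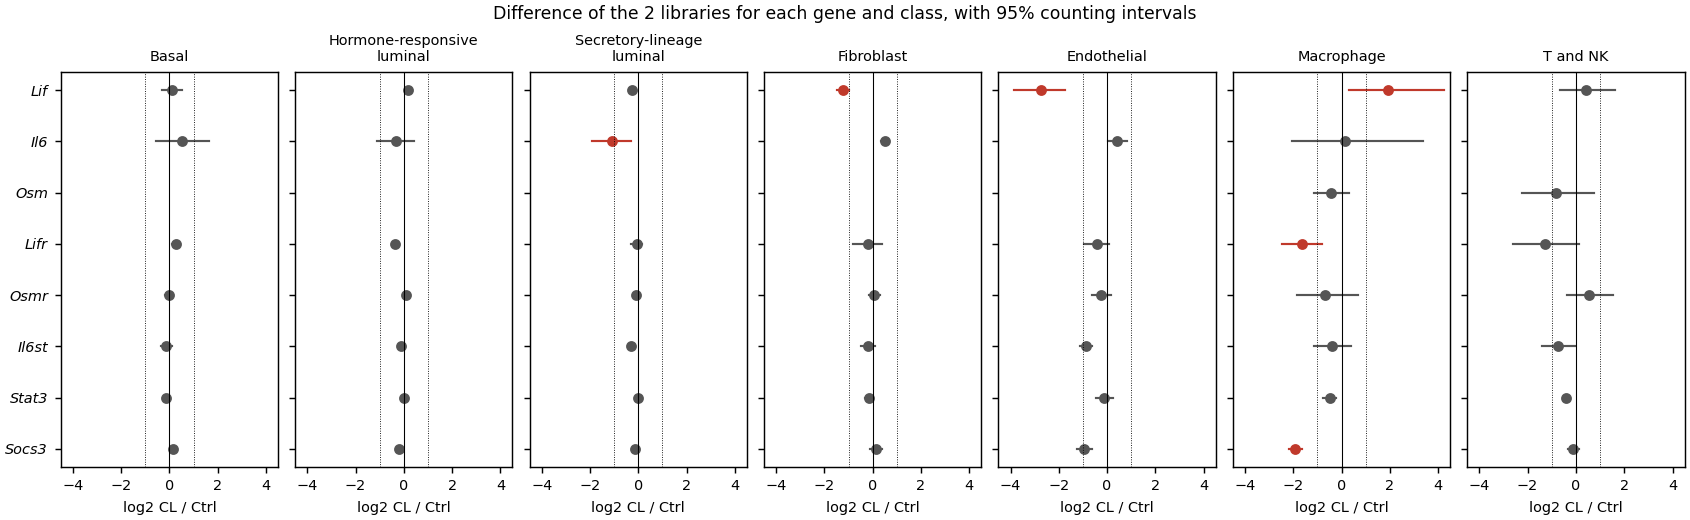
Log2 ratio of the CL-labelled library over the Ctrl-labelled library for each gene (rows) and cell class (panels), with 95% counting intervals; red marks ratios past the 2-fold limit and dotted lines mark 2-fold. In the epithelial classes most points sit close to 0, while Lif in fibroblast-like cells is at -1.24 and Socs3 in macrophage-like cells at -1.91.

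In fibroblast-like cells 1 of 7 members was past the limit, against 4.16% of 6509 genes. Lif was lower in the CL-labelled library, 125 against 295 CPM (log2 -1.24, interval -1.49 to -0.997). The ratio kept its sign but ran from -1.46 to -0.71 under other settings, so that the call did not hold under all of them. In the unnamed Il6-led cluster Lif was 250 and 330 CPM (log2 0.40, -0.07 to 0.88), and with that cluster added to the class the ratio was -0.89. Without the 5 richest cells of each library it was 86.5 against 147 CPM, a log2 ratio of -0.76, and the share of thinned cells with Lif was 13.7% (9.09 to 19.6) against 16.1% (11.2 to 22.2), which overlapped. Il6 went the other way, with a log2 ratio of 0.50 (0.33 to 0.67). The 8 fibroblast markers were also lower, at 43841 and 28604 CPM in sum (log2 -0.62). Hormone-responsive markers in this class summed to 647 CPM in the Ctrl-labelled library and 1425 CPM in the CL-labelled library, and the part of either list in these results was not tested.

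In endothelial-like cells 1 of 7 was past the limit, against 7.77% of 2624 genes. Lif had 40 and 11 UMIs (139 and 20.9 CPM, log2 -2.73, against 117 and 99.2 CPM in droplets), and 31 of the 40 lay in a single cell. With a mitochondrial limit of 5% the ratio was 0.60, so its direction depended on that limit. Socs3 was lower in the CL-labelled library, at 307 against 591 CPM (log2 -0.95, -1.27 to -0.63), and so was Il6st (log2 -0.86, -1.11 to -0.62). Both were lower in the Selp-led cluster and in the Nts-led cluster, which has the lymphatic gene Prox1 among its leading genes. The 5 richest cells held 53.5% and 47.2% of the Socs3 UMIs of endothelial-like cells. Without them Socs3 was at 321 and 207 CPM, and Il6st without its 5 richest cells was at 667 and 388 CPM. The 9 endothelial markers were also lower in this class, at 6093 and 4787 CPM in sum (log2 -0.35). The 12 dissociation stress genes summed to 13851 and 13713 CPM, and 2 of them, Hspa1a and Hspa1b, were past the limit and lower (log2 -1.94 and -1.73). Hormone-responsive markers in endothelial-like cells summed to 928 CPM and 3216 CPM, and the part of these lists in this was not tested.

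In macrophage-like cells 3 of 6 members were past the limit, against 15.1% of 5242 genes. Socs3 was at 449 CPM (390 to 515) in the Ctrl-labelled library and 119 CPM (106 to 135) in the CL-labelled library, a log2 ratio of -1.91. The C1qa-led and Lyz2-led clusters made up different parts of the class in the 2 libraries. Within the C1qa-led cluster Socs3 was 575 and 309 CPM (log2 -0.90, -1.21 to -0.59), and within the Lyz2-led cluster 99.7 and 64.7 CPM (log2 -0.62, -1.49 to 0.37), so neither was past the 2-fold limit. Stat3 was at 308 and 219 CPM in the whole class (log2 -0.49). In the C1qa-led cluster it was at 225 and 293 CPM, not beyond counting error (log2 0.38, -0.03 to 0.80). In the Lyz2-led cluster it was at 540 and 198 CPM (log2 -1.45, -1.83 to -1.04). Lifr had 22 and 35 UMIs (48.4 and 15.5 CPM, log2 -1.64), and without the 5 richest cells of each library the ratio was -0.07. Lif had 3 and 57 UMIs, 23 of them in a single cell (6.61 and 25.3 CPM, under the droplets in both libraries, log2 1.94), and the direction turned under 4 of 12 other settings of the processing. The 10 basal markers, from cells rich in Socs3 and Lifr, summed to 658 CPM in macrophage-like cells of the Ctrl-labelled library and 69.7 CPM in those of the CL-labelled library, and their part in these differences was not tested. Neutrophil markers summed to 2187 and 5140 CPM, B cell markers to 218 and 522 CPM and erythroid markers to 0 and 399 CPM, and their part was not tested either. The 12 dissociation stress genes were also lower there, 6639 and 3223 CPM in sum (log2 -1.04).

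The other genes of the pathway were taken from fixed lists, and the limit was applied to genes with at least 50 UMIs. Of the 8 other ligands, Clcf1, a cytokine that signals through the CNTF receptor, was highest in T and NK-like cells (63.6 and 57.0 CPM) and next in secretory-lineage cells (43.6 and 37.7 CPM). Ebi3, a subunit of IL-27 and IL-35, was highest in macrophage-like cells, at 57.3 and 19.97 CPM (log2 -1.52). It was the 1 ligand of the 8 with enough UMIs there, and it was past the limit, as were 15.1% of the 5242 genes tested in that class. Of the 5 other receptors, Il6ra, the IL-6 binding chain, was at 64.3 and 52.6 CPM in fibroblast-like cells and at 59.5 and 61.3 CPM in macrophage-like cells, and Il11ra1 was highest in fibroblast-like cells (148 and 172 CPM). Cntfr, a receptor for ciliary neurotrophic factor, was lower in fibroblast-like cells of the CL-labelled library (45 and 7 UMIs, log2 -2.50), and Il6ra was higher in its T and NK-like cells (5 and 54 UMIs, log2 1.61). Jak1, a kinase bound to gp130, was at 411 and 387 CPM in fibroblast-like cells and at similar levels in T and NK-like cells (410.5 and 383 CPM). Endothelial-like cells had 375 and 345 CPM of Jak1, and hormone-responsive cells were lowest, at 101 and 102 CPM. Jak1 was past the limit in 0 of the 7 classes. Of the 5 other inhibitors, 5 had enough UMIs in hormone-responsive and in secretory-lineage cells and 1 to 4 in the other classes, and 0 of those were past it.

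Of the 20 targets and acute phase genes, Cebpb, a transcription factor of the acute phase response, was highest in basal-like cells (3083 and 3100 CPM), and Lcn2, the acute phase protein lipocalin-2, in secretory-lineage cells (7101 and 8993 CPM). Past the limit were Fgb in basal-like cells (log2 1.57), Fgb and Lrg1 in hormone-responsive cells (from 427 to 1035 CPM and from 43.0 to 97.0 CPM), and 0 of 17 in secretory-lineage cells. In fibroblast-like cells 3 of 17 were past it, against the 4.16% of all genes tested there, all higher in the CL-labelled library: Lcn2 (243 to 709 CPM), Saa3 (47.1 to 246 CPM) and Fgb (11.9 to 45.9 CPM). In endothelial-like cells Hp, Fgb and Fgg, all of which hormone-responsive cells express, were higher and the protease gene Ctsl lower. In macrophage-like cells Fgg was higher and Nfil3 and Il4ra lower, and in T and NK-like cells Fgg was higher. Droplets held 244 and 446 CPM of Fgb and 391.6 and 638 CPM of Fgg, and 2141 and 3031 CPM of Lcn2, more than fibroblast-like cells did, and the part of free RNA in the values of classes at or under those levels was not tested. Among the fibroblast genes, Saa3 in droplets was 0.544 and 4.14 CPM, far under its level in these cells.

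**Figure D5:**
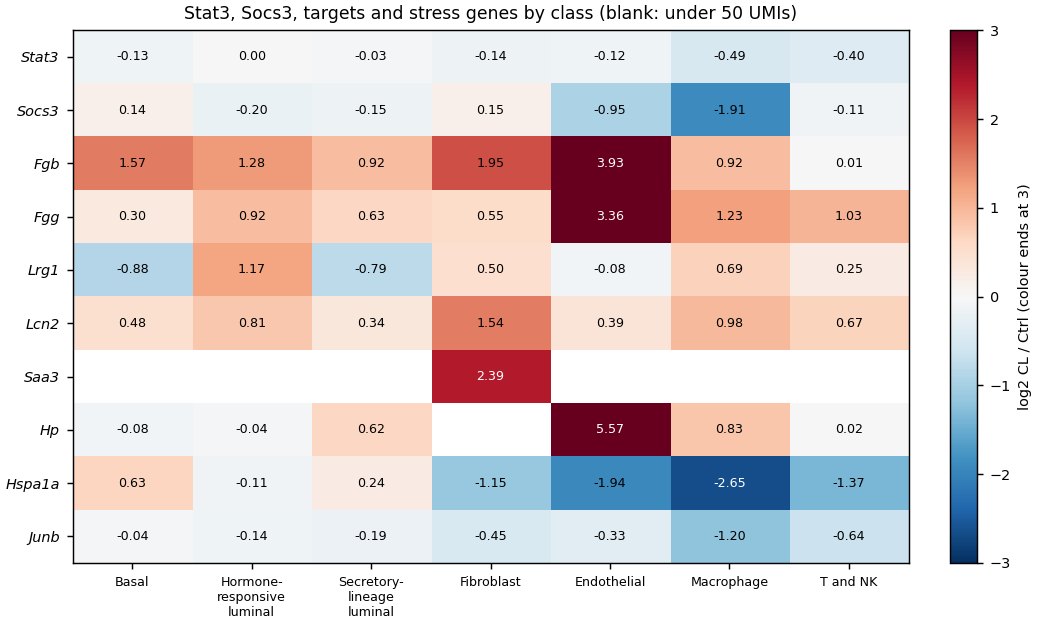
Log2 ratio of the CL-labelled library over the Ctrl-labelled library (colour and printed value) for Stat3, Socs3, 6 target and acute phase genes and 2 stress genes, in 7 cell classes; blank squares have under 50 UMIs. Saa3 is at 2.39 in fibroblast-like cells. Stat3 is at -0.14 in fibroblast-like cells and at -0.49 in macrophage-like cells, where it was beyond counting error in the Lyz2-led cluster and not in the C1qa-led cluster.

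Dissociation stress genes, which enzyme digestion induces, were detected in every class. The 12 genes summed to 13346 and 14690 CPM in basal-like cells, 17138 and 17724 CPM in hormone-responsive cells, 11877 and 10218 CPM in secretory-lineage cells and 13174 and 10771 CPM in fibroblast-like cells. Between the libraries the sum differed by 0.14, 0.05, -0.22 and -0.29 on the log2 scale in these classes, and by -0.42 in T and NK-like cells. How much of the Socs3, Il6 or Lif levels arose during digestion was not tested.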

How the data were processed

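UMI counts per gene and barcode were deposited by the authors as unfiltered matrices (counts, not normalized). The submitters' processing notes name Cell Ranger 2.1.1 and mm10, and the file headers name Cell Ranger 4. The listed barcodes do not index the matrix columns, so the 7217 (Ctrl) and 10555 (CL) barcodes with most UMIs were taken, with at least 500 genes and at most 15% mitochondrial UMIs. Doublets (360 and 509) were removed by their Scrublet score. The threshold of the Ctrl library, 0.2099, was used for both, since the automatic one marked 0 in CL. Cells were clustered in scanpy 1.11.5 (2000 variable genes, 30 components, Leiden resolution 1.0) without 65 genes, the members and pathway lists, and clusters were named from marker lists. UMIs were summed per class and given as CPM with Poisson intervals, ratios between libraries with exact conditional intervals, and shares of cells after thinning to 2000 UMIs with Clopper-Pearson intervals. Droplets of 100 to 300 UMIs gave the background. Named genes were the members, list genes that were past the 2-fold limit in a class or among the 3 highest of their list, and the 3 genes most like each member. Members and lists were chosen with earlier results of these data known. Intervals cover counting error only. The ratio and interval code was tested on simulated data. TMM factors came from edgeR 4.0.16. Some genes are not reported here.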

Additional observations from a re-analysis of the deposited data

Results flagged for a closer look

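The ratio of Lif between the libraries had opposite signs in different cell classes. It was lower in the CL-labelled library in fibroblast-like cells (log2 -1.24) and endothelial-like cells (log2 -2.73), and higher in macrophage-like cells (log2 1.94). With 1 library a group the difference between classes was not tested. The endothelial-like value rests on 40 and 11 UMIs, 31 of the 40 in 1 cell, and the macrophage-like value on 3 and 57 UMIs, 23 of the 57 in 1 cell. With a mitochondrial limit of 5% the endothelial-like ratio was 0.60, and the macrophage-like ratio was negative under 4 of 12 other settings (lowest -1.19). Droplets held 117 and 99.2 CPM of Lif, above the macrophage-like values (6.61 and 25.3 CPM) and the endothelial-like value of the CL-labelled library (20.9 CPM).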

How the results depend on the processing

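No paired analysis was possible because each group is 1 library, and for the same reason no replicate could be left out. Of 630 log2 ratios between libraries under other settings, 569 stayed within the counting interval of the value reported, 51 moved out of it, and 10 that had been beyond counting error changed sign. Ratios whose interval held 0 also changed sign, and these are counted with the first 2 groups. Where a value moved, the cause was not tested. With at least 1000 genes per cell, Socs3 in hormone-responsive cells was -0.28, Lif in macrophage-like cells -1.19, and the log2 ratio of secretory-lineage over hormone-responsive cells 3.99 (Ctrl) and 2.97 (CL) for Lif and -2.38 (CL) for Socs3. With at least 200 genes, Socs3 was -0.038 in basal-like and -0.28 in hormone-responsive cells, Lif in macrophage-like cells -0.79, and the class ratios were 3.16 and 2.57 for Lif and -2.35 (CL) for Socs3. With a mitochondrial limit of 5%, hormone-responsive cells gave -0.27 for Lifr, 0.17 for Osmr and -0.27 for Socs3, Lif was 0.60 in endothelial-like and -0.95 in macrophage-like cells, and the class ratios were 3.77 (CL) for Lif and -2.64 (Ctrl) for Socs3. With doublets kept, Socs3 was -0.049 in basal-like and -0.27 in hormone-responsive cells, Lif in macrophage-like cells -0.71, and the class ratios were 3.17 and 2.56 for Lif and -2.35 (CL) for Socs3. With each cell named alone, Socs3 in hormone-responsive cells was -0.30, Lif in secretory-lineage cells -0.29, and the class ratios were 4.38 and 3.15 for Lif, -3.30 (CL) for Lifr and -2.34 (CL) for Socs3. With CPM averaged over cells, hormone-responsive cells gave -0.056 for Lif and -0.44 for Lifr, Lif in secretory-lineage cells was -0.30, and the class ratios were 4.40 (CL) for Lif and -4.07 (Ctrl) for Lifr. With TMM factors, secretory-lineage cells gave -0.19 for Lif and 0.026 for Stat3. Genes past the limit at 20 and at 200 UMIs numbered 387 and 42 in basal-like, 490 and 143 in hormone-responsive, 462 and 112 in secretory-lineage, 523 and 87 in fibroblast-like, 463 and 53 in endothelial-like and 354 and 26 in T and NK-like cells, and 282 in macrophage-like cells at 200 UMIs, with fewer or more genes tested. Alternatives chosen after seeing the data gave, without the Lyz2-led cluster, 0.38 for Stat3 in macrophage-like cells, without the C1qa-led cluster, 0.68 for Osm, without the Nts-led cluster, -0.14 for Il6 in endothelial-like cells, and without the 5 richest cells of each library, 0.29 for Il6 in fibroblast-like cells and 0.85 for Osm in macrophage-like cells. Lif in fibroblast-like cells kept its sign under 14 of 14 alternatives, from -1.46 to -0.71, and Socs3 in macrophage-like cells under 14 of 14, from -2.10 to -0.62. Depth limited Osm most, with 31 and 111 UMIs in all.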
